A study of Bos taurus with 27 samples.

Results

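The genes described here are the collagens and a small set of fibroblast matrix genes of the rumen epithelium (RE). They were taken as all array gene names made of COL and a digit, plus LUM, DCN, FN1, SPARC, POSTN, PDGFRA, PDGFRB, BGN and FBN1. This gave 44 of the 14952 gene names on the array, each with 1 of the 15008 probes. Of these, 34 are collagen chains and 9 are the fibroblast matrix genes. The remaining gene, COL4A3BP, carries the letters but encodes a ceramide transfer protein whose current symbol is CERT1. It was kept for completeness and is given apart.

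RE was biopsied with a punch from the ventral sac of the rumen of 9 Japanese Black beef cattle, castrated bulls that all carried a rumen fistula, and RNA was hybridised to a one-color bovine array. The same 9 cattle were sampled when 14, 21 and 29 months old, which are the early, middle and late stages of fattening on concentrate and rice straw, and this gave 9 arrays a stage and 27 in all. There was no group kept on an unchanged diet, so stage, age and diet cannot be told apart. The comparisons are the first period (middle against early), the second period (late against middle) and the total period (late against early), each within cattle. Samples were matched to cattle by the number that ends their titles, read as the number of the animal.

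Fibrillar collagens are triple helices that assemble into the cables of connective tissue, and fibril-associated collagens and small proteoglycans such as lumican and decorin sit on their surface. Basement membrane collagens form the sheet under an epithelium, and anchoring collagens tie the epithelial cells to it. In the rumen wall, fibroblasts of the layer beneath the stratified epithelium make most of the fibrillar matrix, while COL17A1 and much of COL7A1 come from epithelial cells.

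The triple helix requires glycine at regular intervals, so a glycine codon (GGN, where N is any base) recurs every 9 bases in the coding sequence of a collagen. Of the 44 probes, 4 held at least 4 such codons in a row, against 21 of all 15008 probes (0.14%), and 3 held at least 6, against 3 of all probes. These 4 sequences are shown because they are the array's direct view of the collagen repeat, and the COL1A1 probe is the one on which several results below turn. Glycine codons on the 9-base spacing are in capitals, 5′ to 3′, and positions are those listed for the array's probes, whose genome build was not given in the sources used here.
COL1A1, chr19:37100714-37100917: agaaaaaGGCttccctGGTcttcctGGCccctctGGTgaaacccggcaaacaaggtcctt
COL11A2, chr23:7299586-7299789: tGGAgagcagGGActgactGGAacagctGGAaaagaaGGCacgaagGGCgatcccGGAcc
COL25A1, chr6:17642508-17643422: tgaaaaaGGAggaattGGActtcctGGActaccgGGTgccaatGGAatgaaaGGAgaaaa
COL8A2, chr3:110300792-110300851: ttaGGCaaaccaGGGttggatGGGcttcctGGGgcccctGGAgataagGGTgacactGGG
The listed spans of the COL1A1, COL11A2 and COL25A1 probes, 204, 204 and 915 bases, are longer than the 60 bases of the probe. The COL8A2 span is 60 bases. In the COL1A1 probe the spacing broke after the codon at position 35, counted from 1 at the 5′ end. It resumed with 2 more glycine codons from position 45, a step of 10 bases instead of 9. The COL11A2, COL25A1 and COL8A2 probes are bright on few or no arrays, as given below, so the COL1A1 probe is the single repeat probe with a measured level in every sample.

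Detection decided which genes could carry a size. A probe is called well above background on an array when the scanner software flagged it so. By this flag 23 of the 44 genes were well above background on all 27 arrays, 9 on most of them (14 or more) and 12 on at most 13 arrays. The 12 near background were COL2A1, COL4A3, COL6A6, COL8A2, COL9A3, COL11A1, COL11A2, COL20A1, COL21A1, COL22A1, COL25A1 and PDGFRB, and 7 of them were never well above background. Several of these are chains of cartilage collagen types (COL2A1, COL9A3, COL11A1, COL11A2). PDGFRB, a growth factor receptor of fibroblasts and pericytes that was set as a marker of these cells, was well above background on 2 early, 0 middle and 1 late array. Its label as a marker could therefore not be checked. The fibroblast marker LUM was well above background on all 27 arrays.

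**Figure D1:**
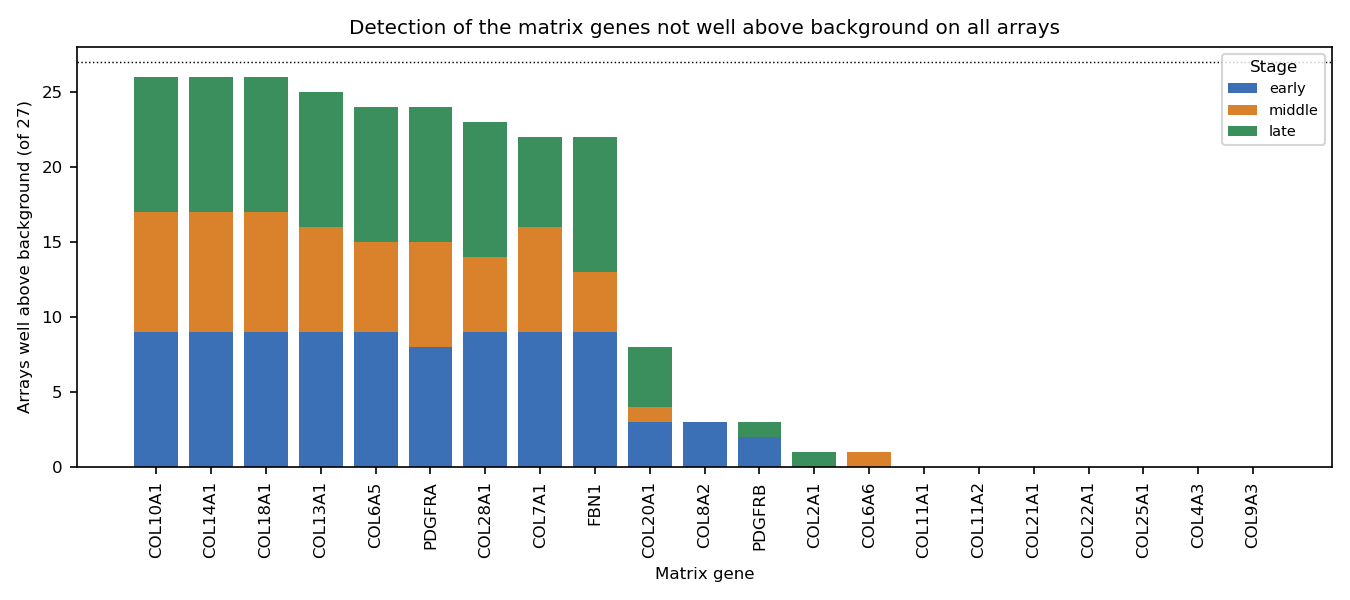
Number of arrays (of 27, dotted line) on which each of the 21 matrix genes below full detection was well above background, stacked by stage (9 arrays each). COL10A1, COL14A1 and COL18A1 reach 26 arrays, PDGFRB 3, and 7 genes have no bar because they were never well above background.

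The middle-stage arrays were dimmer. Their median probe signal ranged from 8.22 to 28.7, against 35.2 to 48.6 for early and 32.2 to 47.0 for late arrays. On them 48.5 to 71.5% of probes were well above background, on early arrays 68.8 to 78.1% and on late arrays 68.4 to 73.7%. Levels are therefore given as log2 of the signal over the array's median, and counts of called genes are set beside the share called among all probes, or among all probes well above background on all arrays. The cattle sampled early lay on slide 1 except cattle 9, and the middle-stage samples of cattle 1 to 7 lay with it on slide 2. The middle-stage samples of cattle 8 and 9 lay on slide 3. Late samples lay on slides of their own, so for the second and total periods no slide held both stages. In a bulk biopsy, fewer fibroblasts and less RNA per fibroblast cannot be told apart.

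More matrix genes were called higher than lower in the first period, and more lower than higher in the second, as was so for all probes. By limma, with P adjusted over all 15008 probes and a threshold of 0.05, 25 of the 44 genes were higher and 1 (LUM) was lower in the first period. Among all probes 45.3% were higher and 21.3% lower. The second period had 4 genes higher and 28 lower, where 27% of all probes were higher and 44.6% lower. In the total period 5 were higher and 4 lower, against 11.2% and 8.93% of all probes. With 75th percentile scaling or quantile normalization 2 were higher and 4 lower. Of all probes 6.65% were then higher and 12.9% lower, or 7.13% and 7.24%. The first and second periods share the middle-stage samples. At a fold change of at least 2, the counts were 14 higher and 1 lower, 1 higher and 14 lower, and 1 higher and 1 lower. Of these, 9 of the 14 higher and 11 of the 14 lower were genes near background, whose sizes are not read. The genes well above background on all arrays gave 4 higher and 1 lower, 1 and 2, and 1 and 0. The share of all probes past this fold change was not counted. Over the 44 genes the log2 fold change had a median of 0.58 in the first period, where that of all probes was 0.32. It was -0.73 beside -0.27 for all probes in the second period, and -0.03 beside 0.03 in the total period.

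Calls were frequent among dim probes at large. In the first period 11 of the 12 were called higher, where 77.9% of all probes near background were. Of the 12, 11 were then called lower in the second period, where 82.1% were. Nothing is therefore read from these calls about the 12 genes, and no size is read from their fold changes.

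Among the 23 genes well above background on all arrays, 9 were higher and 1 lower in the first period, where 34.9% of such probes were higher and 26.9% lower. The second period gave 4 higher and 13 lower, where 37.8% were higher and 30.4% lower. In the total period 3 were higher and 3 lower, where 18% were higher and 7.94% lower. Their median change was 0.42 in log2 in the first period and -0.57 in the second, and that of all probes of this kind was 0.08 and 0.10. Of the 23 genes, 16 lay above the median of such probes in the first period and 6 in the second.

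Background correction and slide both moved these counts. With slide as a random block the 44 genes gave 17 higher and 1 lower in the first period and 2 and 15 in the second. They gave 0 and 1 in the total period, where 4 higher and 1 lower passed an unadjusted P of 0.05. Among all probes 32.7% were then higher and 12.8% lower in the first period, and 16.2% and 33.9% in the second. In the total period 0.56% and 1.11% of all probes were. With the normexp method the 23 genes gave 3 higher and 3 lower in the first period and 5 higher and 3 lower in the second. The median of all such probes itself was then -0.29 and 0.55, and 17 and 8 of the 23 genes lay above it. With slide as a fixed block no gene of the 44 was called in the first period by limma, and 6 passed an unadjusted P of 0.05. Of all probes 0.0067% were called higher and 0% lower. The median of the 44 genes was then 0.38, below the 0.44 of all probes, and 13 of the 23 genes lay above the median of such probes. With cattle also a block, stage was told from slide in that fit only through cattle 8 and 9, each with a single change. All values given below with slide as a fixed block share this limit. On slide 2 alone, which compares 1 early sample (cattle 9) with 7 middle samples (cattle 1 to 7), no animal is paired. The median of the 44 genes was there 0.71 beside 0.22 for all probes.

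**Figure D2:**
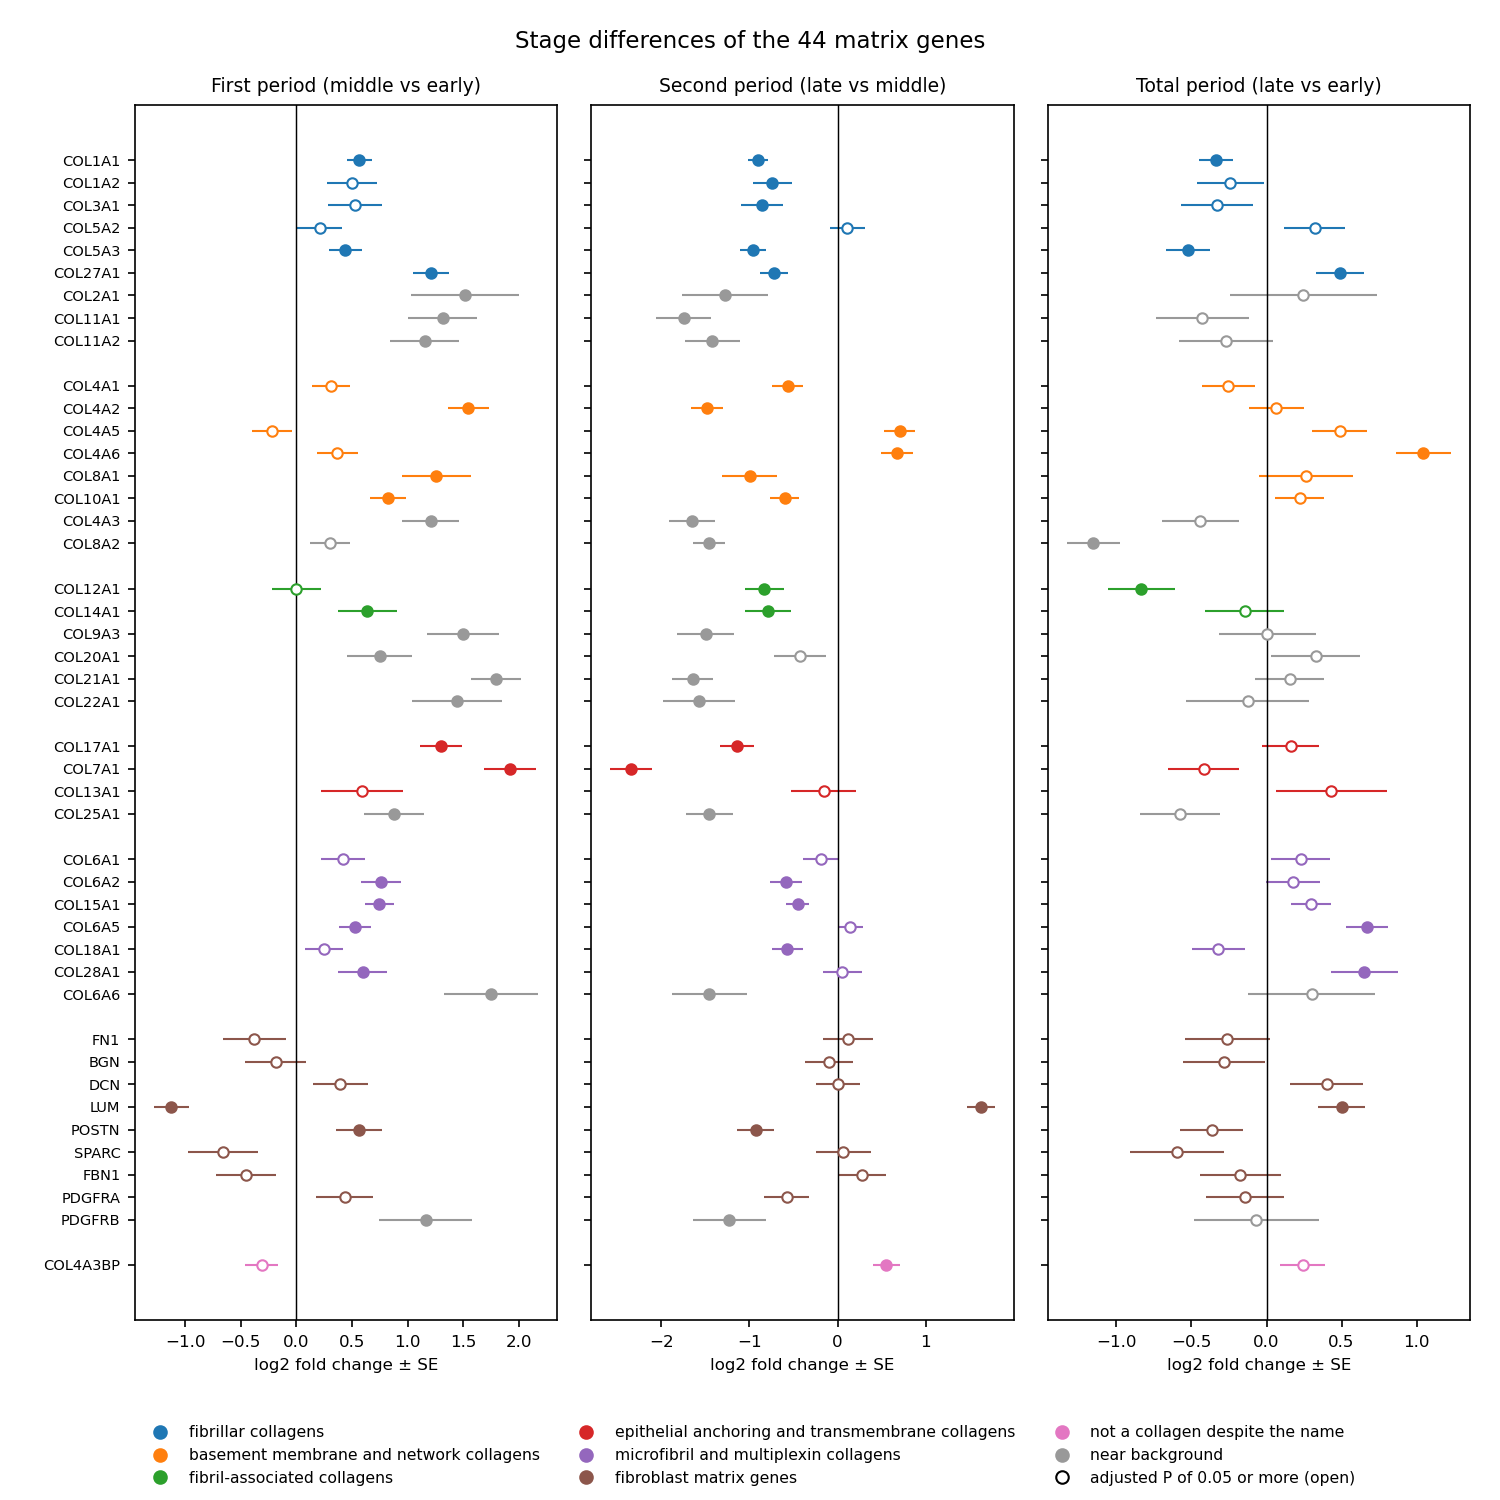
Log2 fold change with SE of the 44 matrix genes in the 3 comparisons (limma, 9 cattle a stage), grouped by role, with filled points for an adjusted P below 0.05, open points for the rest and grey for genes near background. Most points lie right of 0 in the first period and left of 0 in the second, and most are open in the total period. LUM is the 1 gene called lower and then higher. COL4A5, COL4A3BP, FBN1, FN1 and SPARC also lie left and then right of 0, without a first-period call.

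Of the 9 fibrillar collagens, 3 were near background. Of the 6 well above background on all arrays, 3 were higher and 0 lower in the first period, where 34.9% and 26.9% of such probes were. In the second period 0 were higher and 5 lower, where 37.8% and 30.4% were. COL1A1, a chain of type I collagen, had levels of 3.46, 3.53 and 3.99 (lowest, median and highest of 9 cattle) at the early stage, 3.62, 4.20 and 4.43 at the middle stage and 3.10, 3.20 and 3.46 at the late stage. The middle and late ranges did not overlap. The early and middle ranges did, with cattle 9 at 3.62 at the middle stage. It rose by 0.57 ± 0.12 (SE) in log2 in the first period (adjusted P = 0.00033), and was lower by 1.87-fold in the second (adjusted P = 1.79e-06) and by 1.26-fold in the total period (adjusted P = 0.0455). The total-period call ended without cattle 1, 2, 3, 5, 6, 7 or 8 (adjusted P = 0.0643 to 0.143). Its first-period change was 0.07 ± 0.50 with slide as a fixed block and 0.13 with normexp.

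COL1A2, the partner chain of type I collagen, lay at 5.10, 6.93 and 8.37 early, 4.99, 7.72 and 8.84 at the middle stage and 4.25, 6.91 and 7.37 late. The 3 ranges overlapped widely. Its first-period change of 0.50 ± 0.22 did not pass (adjusted P = 0.0557), and it was higher in 6 of 9 cattle. It was 1.67-fold lower in the second period, in 8 of 9 cattle (adjusted P = 0.00623). COL3A1, the chain of type III collagen, lay at 4.95, 6.85 and 8.32 early, 4.76, 7.38 and 8.76 at the middle stage and 3.76, 6.81 and 7.45 late. It likewise did not pass in the first period (0.53 ± 0.24, adjusted P = 0.0593) and was 1.81-fold lower in the second (adjusted P = 0.00352). In the first period both passed without cattle 1 or without cattle 3 (adjusted P = 0.0459 and 0.0261 for COL1A2, 0.0431 and 0.0339 for COL3A1), and so did COL1A2 without cattle 9 and COL3A1 without cattle 4. Their second-period calls needed the within-cattle comparison: without the replicate block their adjusted P was 0.143 and 0.111. With normexp the changes were 0.05 and -0.01.

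COL27A1, a fibrillar chain, lay at 1.77, 2.07 and 2.51 early, 2.98, 3.28 and 3.64 at the middle stage and 2.20, 2.38 and 3.39 late. Every middle sample was above every early sample. It was 2.31-fold higher in the first period (adjusted P = 5.04e-06), 1.65-fold lower in the second (adjusted P = 0.000502) and still 1.40-fold higher in the total period (adjusted P = 0.0353), a call that ended without cattle 1, 2, 3, 5, 7 or 9 (adjusted P = 0.0535 to 0.0936). COL5A3, a chain of the type V collagen that regulates fibril width, rose in 9 of 9 cattle in the first period (0.44 ± 0.15, adjusted P = 0.0137) and fell in 9 of 9 in the second (-0.96 ± 0.15, adjusted P = 1.37e-05). COL5A2, another type V chain, was the fibrillar gene that passed in none of the 3 comparisons (0.21, 0.11 and 0.32). It is the chromosomal neighbour of COL3A1, whose change lay below its own by 0.97 ± 0.67 (SD, n = 9) in the second period, in 8 of 9 cattle (exact permutation P = 0.0117, adjusted 0.0301), and by 0.65 ± 0.57 in the total period, in 7 of 9 (exact permutation P = 0.0156, adjusted 0.0352). The adjustment is that over 18 such differences described for COL4A2.

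Basement membrane and network collagens split by chain. Of the 5 that were well above background on all arrays, 2 were higher in the first period, and 2 were higher and 3 lower in the second, beside the shares of such probes given for the fibrillar chains. COL4A2, which joins with COL4A1 in the commonest type IV collagen, lay at 1.56, 1.74 and 2.48 early, 2.04, 3.61 and 4.52 at the middle stage and 1.70, 2.00 and 2.44 late. It was higher at the middle than at the early stage in 9 of 9 cattle, by 2.92-fold on average (adjusted P = 1.69e-06), and lower again in 9 of 9, by 2.79-fold (adjusted P = 1.23e-06). The ranges met only at the low middle value of cattle 1. The first-period change was 1.56 ± 0.92 with slide as a fixed block and 1.70 ± 0.71 on slide 2 alone, where no animal is paired.

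COL4A1 lay at 2.99, 3.66 and 4.43 early, 2.31, 4.28 and 4.82 at the middle stage and 2.77, 3.56 and 4.02 late. Its ranges overlapped at all stages. Its first-period change was 0.31 ± 0.17 (adjusted P = 0.122), and it was 1.48-fold lower in the second period (adjusted P = 0.00721). The genes COL4A1 and COL4A2 are neighbours on chromosome 12 in the gene table. The change of COL4A2 exceeded that of COL4A1 by 1.24 ± 0.56 (SD, n = 9) in log2 in the first period, in 9 of 9 cattle. An exact two-sided sign-flip permutation test over cattle gave P = 0.00391, the smallest that 9 cattle allow, and 0.0234 after Benjamini-Hochberg adjustment over 18 such differences. In the second period COL4A2 fell further by 0.92 ± 0.52, again in 9 of 9 (exact permutation P = 0.00391, adjusted 0.0234). These differences are within arrays, so a constant factor of an array cancels. Effects of background or brightness that change with the level of a probe do not cancel. The differences were not recomputed with other background corrections or normalizations.

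COL4A6 and COL4A5, the X-linked type IV chains that are neighbours on chromosome X, moved otherwise. COL4A6 lay at 1.51, 1.85 and 2.46 early, 1.52, 2.38 and 2.85 at the middle stage and 2.35, 2.78 and 3.86 late. It was higher in the second period (1.60-fold, adjusted P = 0.00276) and 2.06-fold higher in the total period, in 9 of 9 cattle (adjusted P = 0.000502). It was the single matrix gene past 2-fold upwards in the total period. With slide as a random block this call was not kept: 0 of the 44 genes and 0.56% of all probes were then higher. No slide held both early and late samples. COL4A5 lay at 2.15, 2.72 and 2.91 early, 1.82, 2.47 and 3.08 at the middle stage and 2.47, 3.14 and 3.96 late, and was 1.63-fold higher in the second period (adjusted P = 0.00185). Its total-period change of 0.49 ± 0.18 did not pass (adjusted P = 0.0638), and was 0.56 ± 0.35 (SD, n = 9) smaller than that of COL4A6 (exact permutation P = 0.00781, adjusted 0.0234).

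COL8A1, a short-chain network collagen of vessels, lay at 0.22, 1.05 and 3.20 early, 0.72, 2.37 and 3.85 at the middle stage and 0.40, 1.69 and 2.96 late. The spread between cattle was wide at each stage. It was 2.40-fold higher in the first period (adjusted P = 0.00164) and 2.00-fold lower in the second (adjusted P = 0.00764). Its first-period value turned to -0.46 ± 1.34 with slide as a fixed block. COL10A1, well above background on 26 arrays, was higher in the first period in 9 of 9 cattle without overlap of the ranges (0.82 ± 0.16, adjusted P = 0.000232).

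Of the 4 anchoring and transmembrane collagens, COL17A1 alone was well above background on all arrays. COL17A1, the transmembrane collagen of hemidesmosomes, which fix basal epithelial cells to the basement membrane, lay at 2.42, 3.51 and 4.29 early, 4.11, 4.77 and 5.35 at the middle stage and 3.16, 3.57 and 3.98 late. All middle values were above all late values, and early and middle overlapped through the highest early sample. It was 2.47-fold higher in the first period (adjusted P = 1.41e-05) and 2.21-fold lower in the second (adjusted P = 3.19e-05), in 9 of 9 cattle each. Its total-period change was 0.16 ± 0.19. With slide as a fixed block the first-period value was 3.04 ± 0.68, and with normexp it was 0.53 ± 0.26 (adjusted P = 0.0759).

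COL7A1, which forms the anchoring fibrils below that membrane, lay at -2.71, -1.88 and -1.30 early, -0.63, -0.17 and 1.42 at the middle stage and -3.22, -2.21 and -1.60 late. Middle values lay above all early and all late values. It was 3.79-fold higher in the first period (adjusted P = 2.49e-06) and 5.06-fold lower in the second (adjusted P = 1.07e-07). Its probe passed the background flag on 9 early, 7 middle and 6 late arrays, so its level was close to background and the size of these folds is uncertain. With normexp the changes were 0.44 and -0.58 in log2. COL13A1, a transmembrane collagen of cell contacts, passed in none (0.59, -0.16 and 0.43).

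Fibril-associated collagens were mostly dim: of 6 genes, 4 were near background. COL12A1, which sits on the surface of type I fibrils, lay at -0.38, 0.35 and 1.37 early, -1.15, 0.50 and 1.37 at the middle stage and -0.76, -0.36 and 0.04 late. Its first-period change did not pass (-0.002 ± 0.22), and it was 1.78-fold lower in the second (adjusted P = 0.00246) and in the total period, in 9 of 9 cattle (adjusted P = 0.0118). COL14A1, its relative, rose by 0.64 ± 0.26 in the first period (adjusted P = 0.0375) and fell by 0.79 on the log2 scale in the second (adjusted P = 0.0115).

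Of the 7 microfibril collagens and multiplexins, 3 passed the background flag on every array. Of these 3, 2 were higher in the first period and 2 lower in the second, where 34.9% and 30.4% of such probes were. COL6A2, a chain of the beaded microfibrils around cells, lay at 0.39, 1.62 and 2.36 early, 0.26, 2.59 and 3.33 at the middle stage and -0.20, 1.98 and 2.59 late, and was 1.70-fold higher in the first period (adjusted P = 0.00115). Its chromosome 1 neighbour and partner chain COL6A1 changed by 0.42 ± 0.20 (adjusted P = 0.069). The difference of their changes, 0.34 ± 0.52 (SD, n = 9), did not pass (exact permutation P = 0.082, adjusted 0.134). COL15A1, a multiplexin of vessel and muscle basement membranes, rose in 9 of 9 cattle (0.75 ± 0.13, adjusted P = 8.79e-05) and fell in 9 of 9 (-0.45 ± 0.13, adjusted P = 0.00485). COL6A5 and COL28A1 rose in the first period (0.53 and 0.60) and stayed higher in the total period, by 1.59-fold (adjusted P = 0.00234) and 1.57-fold (adjusted P = 0.0444), in 9 of 9 cattle each. Both were below the call of well above background on some middle-stage arrays, 3 and 4 of 9. With slide as a random block neither total-period call was kept: 0 of the 44 genes and 0.56% of all probes were then higher. No slide held both early and late samples.

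Of the 9 fibroblast matrix genes, 6 were well above background on all arrays. Of these, POSTN was higher and LUM lower in the first period, LUM was higher and POSTN lower in the second, and the other 4 passed in neither. Among all such probes 34.9% were higher and 26.9% lower in the first period, and 37.8% and 30.4% in the second. The difference between the fibroblast matrix genes and the collagens was not tested as a group. LUM encodes lumican, a keratan sulfate proteoglycan that binds collagen fibrils. It lay at 0.41, 2.42 and 3.17 early, -0.24, 1.27 and 2.21 at the middle stage and 1.34, 2.91 and 3.55 late. It was lower at the middle than at the early stage in 9 of 9 cattle, by 2.18-fold (adjusted P = 8.49e-06), and higher again at the late stage in 9 of 9, by 3.08-fold (adjusted P = 5.29e-08). The ranges overlapped, and cattle 1 lay below the others at every stage. In the total period LUM was 1.41-fold higher (adjusted P = 0.0283), a call not kept under 75th percentile scaling (adjusted P = 0.100) or without the replicate block (0.306), nor without cattle 1, 2, 5, 7 or 8 (0.0519 to 0.0899). With slide as a fixed block the first-period change was -0.58 ± 0.76, and on slide 2 alone -1.10 ± 0.76. Under normexp, quantile and cyclic loess normalization it was -0.79, -1.08 and -1.09.

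DCN encodes decorin, the related proteoglycan whose gene is the neighbour of LUM on chromosome 5. It lay at 3.18, 4.66 and 6.20 early, 3.72, 5.29 and 6.67 at the middle stage and 4.63, 5.00 and 5.80 late. It passed in no comparison (0.39 ± 0.25, 0.01 ± 0.25 and 0.40 ± 0.25). The change of LUM was below that of DCN by 1.52 ± 0.62 (SD, n = 9) in the first period, in 9 of 9 cattle (exact permutation P = 0.00391, adjusted 0.0234). It was above it in the second period by 1.62 ± 1.00, in 8 of 9 (exact permutation P = 0.00781, adjusted 0.0234).

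POSTN encodes periostin, a matricellular protein that binds collagen. It lay at 1.27, 2.84 and 3.61 early, 2.68, 3.28 and 3.91 at the middle stage and 1.61, 2.54 and 2.79 late. It was 1.48-fold higher in the first period (adjusted P = 0.0241) and 1.90-fold lower in the second, in 9 of 9 cattle (adjusted P = 0.000632). The first-period call ended without cattle 2, 4, 5 or 7 (adjusted P = 0.0527 to 0.0609), and with normexp the value was -0.0646. Biglycan (BGN), fibronectin (FN1), SPARC, fibrillin 1 (FBN1) and the receptor PDGFRA passed in none of the 3 comparisons. PDGFRA changed by -0.58 ± 0.26 in the second period (adjusted P = 0.0511). SPARC, a collagen-binding secreted protein, lay at 1.31, 2.61 and 4.20 early, 0.27, 1.70 and 4.47 at the middle stage and 0.65, 2.48 and 2.66 late. Its first-period change was -0.66 ± 0.31, with 8 of 9 cattle below 0 (adjusted P = 0.0689). Without cattle 2 its change passed (-0.98, adjusted P = 0.0032). The first-period changes of BGN, FN1, FBN1 and PDGFRA were -0.19 ± 0.27, -0.38 ± 0.28, -0.46 ± 0.27 and 0.43 ± 0.26. Of the 9 middle-stage arrays, 4 had FBN1 well above background. COL4A3BP was 1.47-fold higher in the second period (adjusted P = 0.00286) and did not pass in the others.

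**Figure D3:**
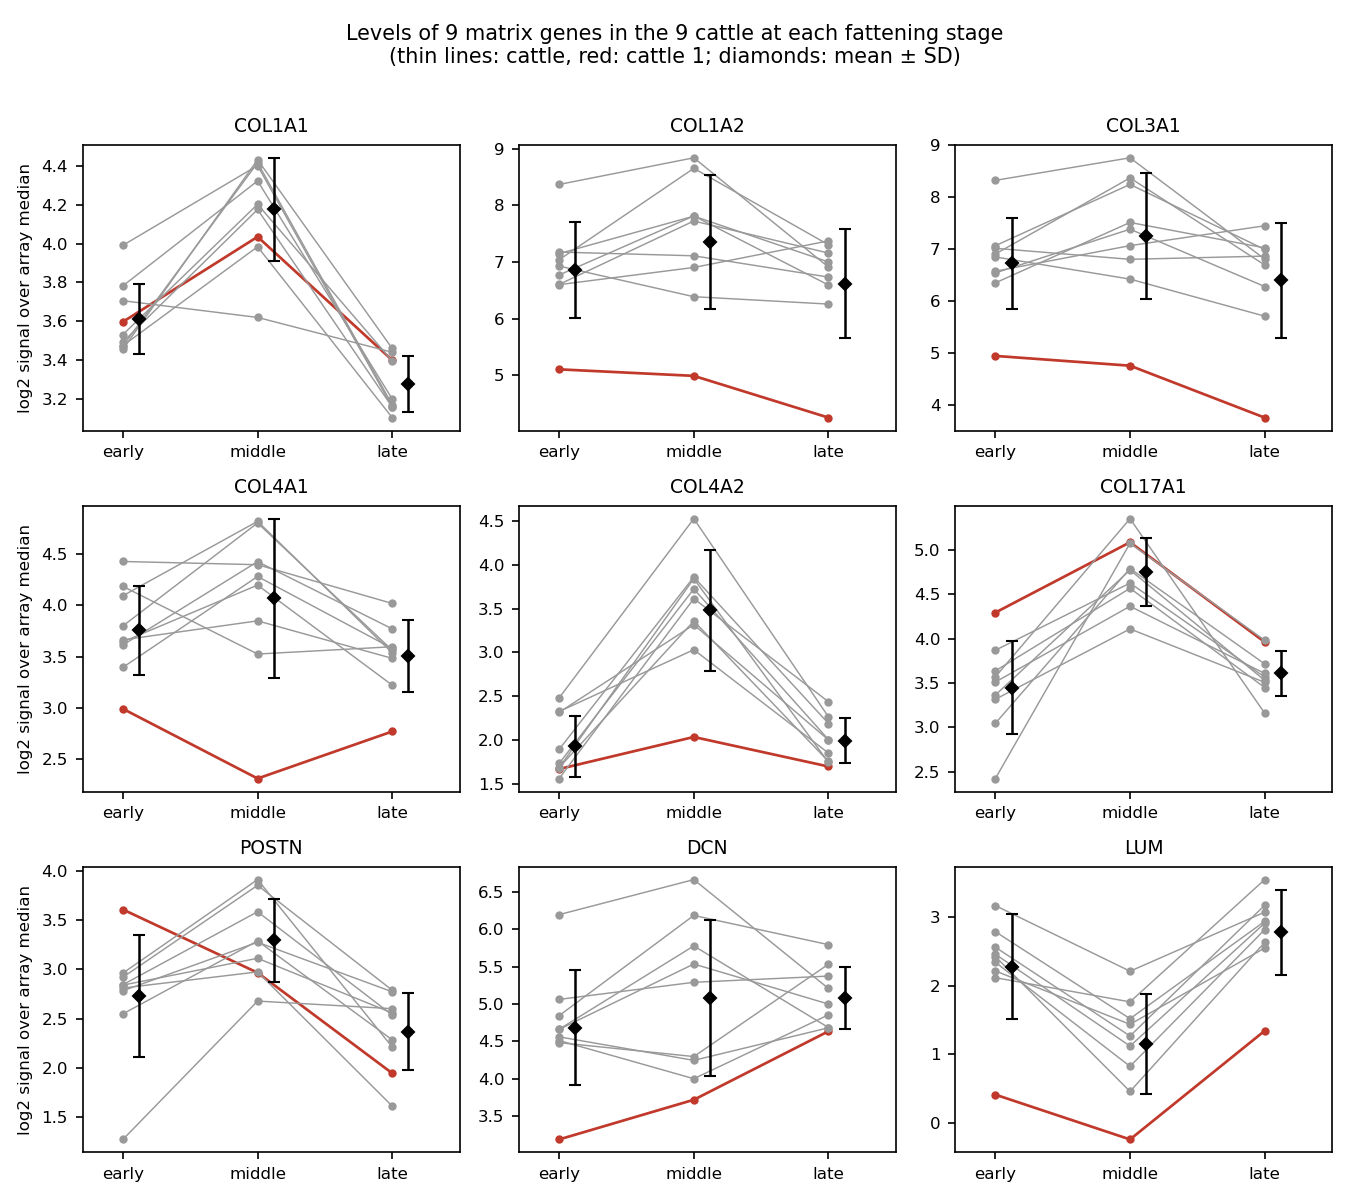
Log2 signal over the array median of 9 matrix genes at the 3 stages, with a line for each of the 9 cattle (cattle 1 in red) and diamonds for the mean with SD. COL4A2 and COL17A1 peak at the middle stage in all cattle, LUM dips in all, and cattle 1 lies lowest at every stage for COL1A2, COL3A1, COL4A1, DCN and LUM but not for COL1A1.

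Matrix genes differed between cattle more than most genes did. Over the 23 genes well above background on all arrays, the median SD between cattle was 0.57, 0.78 and 0.42 for the early, middle and late samples. For all probes of this kind it was 0.21, 0.42 and 0.20. Of the 23 genes, 22, 19 and 22 had an SD above that of the median probe. COL1A1 was among the steadiest, with an SD of 0.18, 0.27 and 0.14, while that of COL1A2 was 0.85, 1.19 and 0.96.

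Cattle 1 stood apart at each stage. It had the lowest level at all 3 stages for 11 of the 23 genes (COL15A1, COL1A2, COL3A1, COL4A1, COL5A3, COL6A1, COL6A2, DCN, FN1, LUM and SPARC), where it did so for 2.43% of all 6797 probes of this kind. No other animal was lowest at all 3 stages for any of the 23. Cattle 6 had the highest level for 17 of the 23 genes early, for 11 at the middle stage and for 0 late, for example for COL1A2 (8.37, 8.84 and 6.91). Among the 6797 probes cattle 6 was highest for 743, 677 and 895 at the 3 stages. Late, cattle 9 was highest for 9 genes and cattle 2 for 8, where they were for 1177 and 509 of the 6797 probes. The choice of cattle 1 was made after its values were seen. Its summed fibroblast markers were 87.9, 89.7 and 70.8 times the array median at the 3 stages, the lowest of 9 cattle each time. All 7 of these markers are genes described here, and COL1A2, COL3A1, DCN and LUM among them were just listed as lowest. The rank of this sum is therefore no separate observation. Its summed endothelial markers were lowest, lowest and next to lowest, and its leukocyte markers lowest and then next to lowest at the middle and late stages. Counted from the lowest, its smooth muscle markers ranked 3, 3 and 8, its stratified epithelial markers 7, 4 and 7 and its red blood cell markers 9, 6 and 7. The part of these cell types in its levels was not tested.

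Across cattle within a stage, several matrix genes moved together. The 7 pairs were examined at 3 stages, which gave 21 correlations, each over 9 cattle with exact permutation P and Benjamini-Hochberg adjustment. COL1A2 and COL3A1 had a Pearson's r of 0.997, 0.975 and 0.974 (adjusted exact P = 0.000318, 0.000318 and 0.00212) and a Spearman's rho of 0.933, 0.933 and 0.817 (adjusted exact P = 0.00394, 0.00394 and 0.0251). Without the 2 cattle farthest from the median of COL1A2, r was 0.953, 0.912 and 0.704. Within the slide that held most samples of the stage (8, 7 and 8 cattle) it was 0.998, 0.982 and 0.973.

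COL1A2 and SPARC had an r of 0.976, 0.846 and 0.934 (adjusted exact P = 0.00108, 0.00651 and 0.00224), a rho of 0.983, 0.783 and 0.867 (0.00104, 0.0362 and 0.0158), and 0.915, 0.862 and 0.641 without the 2 farthest. On the main slide of each stage r was 0.979, 0.881 and 0.932. COL6A1 and COL6A2 had an r of 0.936, 0.927 and 0.964 (adjusted exact P = 0.00207, 0.00224 and 0.00224), a rho of 0.883, 0.950 and 0.817 (0.0129, 0.0037 and 0.0251), and 0.750, 0.730 and 0.787 without the 2 farthest. On the main slide r was 0.944, 0.938 and 0.975.

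COL1A2 and LUM had an r of 0.931, 0.872 and 0.869 (adjusted exact P = 0.00345, 0.00575 and 0.0407) and a rho of 0.817, 0.733 and 0.367 (0.0251, 0.0545 and 0.372). On the main slide r was 0.934, 0.920 and 0.962. Without the 2 farthest it was 0.537, 0.550 and 0.029, so the late relation rests on those cattle and r is lower without them early and at the middle stage. DCN and LUM had an r of 0.873, 0.695 and 0.578 (adjusted exact P = 0.0254, 0.0491 and 0.105), a rho of 0.567, 0.667 and 0.533 (0.169, 0.0951 and 0.194), 0.001, 0.301 and 0.603 without the 2 farthest, and 0.874, 0.782 and 0.699 on the main slide, so the early relation rests on the 2 farthest. COL4A1 and COL4A2 had an r of 0.643, 0.767 and 0.628 (adjusted exact P = 0.0809, 0.0432 and 0.0809), a rho of 0.767, 0.433 and 0.650 (0.0408, 0.292 and 0.0998), 0.407, -0.147 and 0.386 without the 2 farthest, and 0.643, 0.802 and 0.583 on the main slide.

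The relation between the chains of type I collagen across cattle did not pass at any stage. COL1A1 and COL1A2 had an r of 0.466, 0.461 and -0.157 (adjusted exact P = 0.227, 0.227 and 0.844) and a rho of -0.017, 0.450 and 0.267 (0.982, 0.284 and 0.518). Without the 2 cattle farthest from the median of COL1A1, r was -0.506, 0.680 and -0.475, and on the main slide 0.501, 0.820 and -0.329. Cattle 1, lowest for COL1A2 at all stages, lay inside the range of the others for COL1A1 (3.60, 4.04 and 3.40). The stage changes of the 2 chains could not be told apart within cattle either: the difference of their changes was -0.07 ± 0.70, 0.16 ± 0.51 and 0.10 ± 0.63 (SD, n = 9; exact permutation P = 0.77, 0.348 and 0.645, adjusted 0.815, 0.481 and 0.773). The COL1A1 value rests on the 1 probe printed above, with the irregular step in its repeat. Whether that step bears on its steadiness was not tested.

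**Figure D4:**
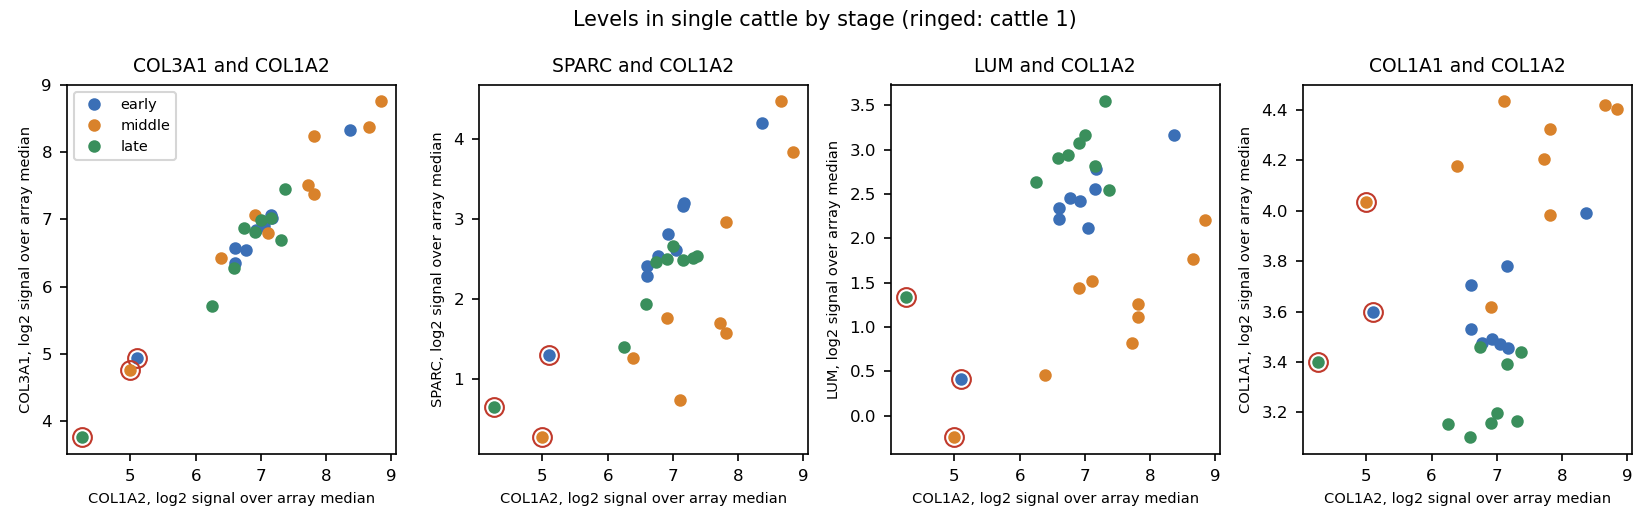
Log2 signal over the array median of COL3A1, SPARC, LUM and COL1A1 against COL1A2, a point for each of 9 cattle at each stage, with cattle 1 ringed. COL3A1 follows COL1A2 closely at all stages (r 0.997, 0.975 and 0.974), the middle-stage LUM points lie below the others, and COL1A1 spans a narrow range.

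The lists of other collagen and matrix genes held genes called in both directions. Their counts stand beside 45.3% higher and 21.3% lower among all probes in the first period and 27% and 44.6% in the second, and several are close to those shares. Of 16 biosynthesis enzymes and chaperones, 8 were higher and 4 lower in the first period, and 4 higher and 10 lower in the second. Of the 11 well above background on all arrays, 4 were higher and 3 lower, then 3 higher and 7 lower, where 34.9% and 26.9%, then 37.8% and 30.4% of such probes were. FKBP10, a collagen chaperone of the endoplasmic reticulum, rose by 1.53 ± 0.19 in the first period (adjusted P = 2.36e-06) and fell by 2.10 on the log2 scale in the second (adjusted P = 2.13e-08). PPIB and P4HB, which act on collagen and on other secreted proteins, went the other way, by -1.47 ± 0.17 (adjusted P = 1.14e-06) and -1.24 ± 0.22 (adjusted P = 0.000113) in the first period. They then rose by 1.56 and 1.84 in the second period (adjusted P = 2.17e-07 and 1.18e-06).

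Of 13 processing and cross-linking genes, 7 were higher and 0 lower in the first period and 6 lower in the second. The cross-linking enzyme LOXL3 rose by 0.85 ± 0.10 (adjusted P = 2.44e-06). Its relative LOXL2 was higher in the total period by 1.03 ± 0.14, in 9 of 9 cattle (adjusted P = 3.57e-05). ADAMTS2, which trims procollagen, fell by 1.11 on the log2 scale in the second period (adjusted P = 0.000199). Of 19 matrix metalloproteinases and inhibitors, 10 were higher and 2 lower, then 2 higher and 12 lower. Only 5 of those 19 passed the background flag on every array. Of these 5, 2 were higher in the first period and 3 lower in the second, where 34.9% and 30.4% of such probes were. The membrane collagenase MMP14 rose by 1.23 ± 0.17 (adjusted P = 7e-06) and fell by 1.43 on the log2 scale (adjusted P = 6.51e-07). MMP2 was lower in the total period, by -0.82 ± 0.22 (adjusted P = 0.0132).

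Of 8 collagen receptors, 3 were higher and 1 lower, then 1 higher and 5 lower. MRC2, an uptake receptor for collagen on mesenchymal cells, rose by 0.81 ± 0.15 (adjusted P = 0.000141), and DDR1, the collagen receptor of epithelia, fell by 0.55 on the log2 scale (adjusted P = 0.000737). LAIR1, an inhibitory collagen receptor of leukocytes, fell by 0.95 on the log2 scale in the second period (adjusted P = 2.45e-05), and the integrin chain ITGB1 by 0.35 in the total period (adjusted P = 0.0461). Of 16 basement membrane partners, 8 were higher and 2 lower in the first period and 6 lower in the second. HSPG2, which encodes perlecan, rose by 1.16 ± 0.15 (adjusted P = 3.16e-06) and fell by 1.27 on the log2 scale (adjusted P = 5e-07), and LAMA1 fell by 0.76 on the log2 scale in the first period (adjusted P = 0.001). Of 15 TGF-beta and PDGF ligands, TGF-beta receptors and their partners, 7 were higher and 2 lower, then 2 higher and 5 lower. TGFBR3, a TGF-beta co-receptor, rose by 0.59 ± 0.22 in the first period (adjusted P = 0.0216). TGFB2 fell by 0.95 on the log2 scale in the second period (adjusted P = 0.000143), SMAD4 by 0.72 in the first (adjusted P = 1.24e-05), and PDGFB was higher in the total period by 0.42 ± 0.10 (adjusted P = 0.00543).

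Markers of other cell types were called over the same stages, to be read beside the same shares of all probes. Smooth muscle markers (9 genes) gave 6 higher and 0 lower in the first period and 8 lower in the second. Their summed level, over the array median, ranged from 179 to 534 early, 268 to 1225 at the middle stage and 201 to 347 late (medians 260, 686 and 230). CALD1, a regulator of actin, rose by 1.57 ± 0.20 (adjusted P = 5.07e-06). Red blood cell markers (3 genes) summed to 38.7 to 67.7, 104 to 198 and 44.7 to 89.9 (medians 60.7, 140 and 56.8), without overlap between the middle and the other stages. Of the 3 genes, 1 was higher in the first period and 1 lower in the second, in both cases HBA, an alpha globin. It alone was well above background on all arrays, and rose by 1.22 ± 0.13 in the first period (adjusted P = 7.09e-07). Fibroblast markers (7 genes, all members) summed to 87.9 to 750, 89.7 to 1021 and 70.8 to 404 (medians 277, 457 and 287).

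The other marker lists held genes called in both directions. Stratified epithelial markers (12 genes) gave 3 higher and 4 lower, then 2 higher and 3 lower. They summed to 3084 to 4198 early, 961 to 4595 at the middle stage and 3482 to 4407 late. The medians of these sums were 3847, 2279 and 3807, lowest at the middle stage. In the first period the keratins KRT6A and KRT14 fell by 1.28 and 1.12 on the log2 scale (adjusted P = 0.000939 and 6.71e-06), the desmosomal cadherins DSC3 and DSG3 rose by 0.52 and 0.45 (adjusted P = 0.000617 and 0.00143), and KRT15 and TP63 did not pass. Endothelial markers (9 genes) gave 3 higher and 2 lower, then 2 higher and 3 lower, and summed to 23.9 to 42.9, 19.1 to 55.6 and 22.3 to 39.5 (medians 32.0, 32.5 and 31.4). ESAM, an endothelial adhesion molecule, rose by 0.60 ± 0.16 in the first period (adjusted P = 0.00299). Leukocyte markers (10 genes) gave 3 higher and 1 lower, then 3 higher and 4 lower, and summed to 50.1 to 125, 53.0 to 88.7 and 53.8 to 89.4 (medians 61.3, 76.1 and 66.7). In the first period LCP1 rose by 0.53 ± 0.16 (adjusted P = 0.00587) and CD3G fell by 1.34 on the log2 scale (adjusted P = 0.00147), and in the second PTPRC fell by 1.24 (adjusted P = 7.85e-05). The part of these cell types and of array brightness in the stage changes of the matrix genes was not tested.

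**Figure D5:**
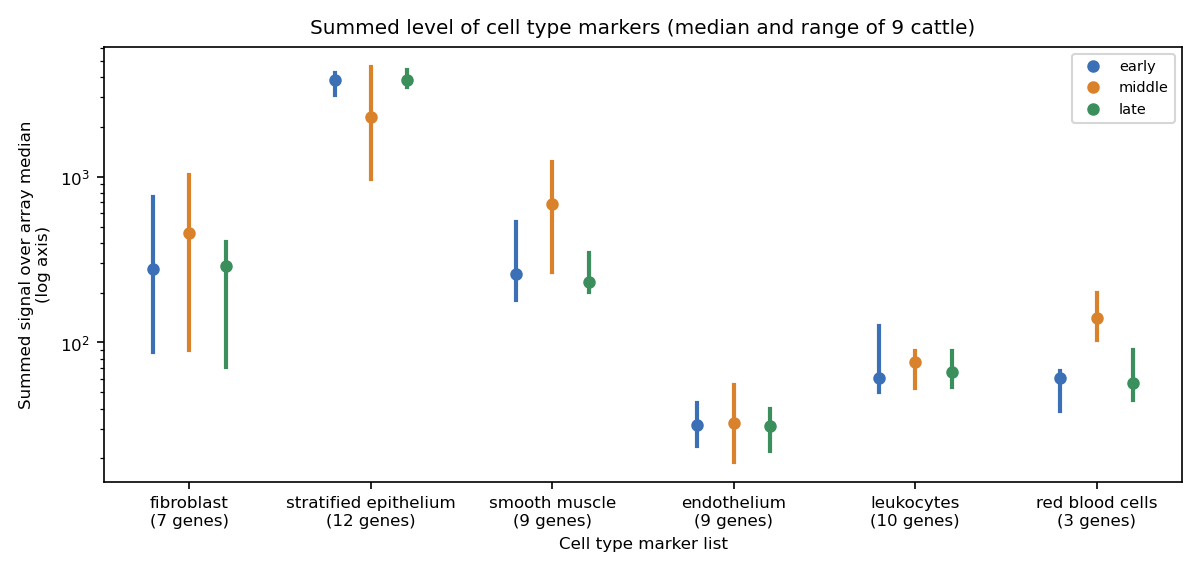
Summed signal over the array median (log axis) of 6 cell type marker lists at the 3 stages, with the median of 9 cattle as a point and the range as a line. The medians of the smooth muscle, red blood cell, fibroblast and leukocyte sums are highest at the middle stage. That of the stratified epithelial sum is lowest there, and the endothelial medians are close to each other. On the log axis fibroblast sums span the widest range between cattle at all 3 stages.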

How the data were processed

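RNA of 27 RE samples was labelled with cyanine 3 and hybridised to a custom Agilent bovine array with probes of 60 bases. One label describes extraction from other tissues, whereas the tissue label and the methods name RE. The intensity values (processed signal, background-subtracted) were deposited by the authors as scanner output, made with Feature Extraction 11.0.1.1 per the file headers (9.5 per the labels). The deposited log2 values of the same arrays matched log2 signal minus the array's 75th percentile within 0.0207 per column median. Their own centring step is described differently in the methods.

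Here, control spots were left out, outlier spots set missing (0 to 15 an array), replicate spots averaged, and log2 signal centred on each array's median. Stages were compared with limma 3.58.1 (R 4.3.3) with cattle as a block and Benjamini-Hochberg adjustment over 15008 probes, and a call was an adjusted P below 0.05. The authors' design was paired. Deviations of samples of the same animal correlated on average at 0.158 (24 of 27 pairs above 0) and of different animals at -0.020. The pairing rests on the number that ends each sample title, read here as the number of the animal. The fit was tested on simulated data. No spot was saturated, and the number of arrays limits precision. Cattle were single animals, each measured once a stage.

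The genes and lists were chosen with earlier results of these data known. Named genes were LUM, PDGFRB, PDGFRA, DCN, BGN, FN1, SPARC, POSTN, FBN1, COL1A1, COL1A2, COL3A1, COL4A1, COL4A2, COL7A1 and COL17A1, plus every gene past a 2-fold change and the threshold that was well above background on at least 5 of 9 arrays of both stages. Other genes named were chosen after their values were seen. From the other lists the most raised and most lowered called genes well above background on all arrays were named. The gene pairs tested within cattle are chromosomal neighbours, with COL1A1 and COL1A2 added. The neighbours COL6A6, a gene near background, and COL6A5 were not tested as a pair. Gene neighbours and symbols came from the RefSeq gene table for ARS-UCD2.0, by which 30 of the 44 probes were matched by accession. Alternatives were other scalings, background corrections, filters, slide and replicate blocks, the methods' paired test and leaving out each animal.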

Additional observations from a re-analysis of the deposited data

Results flagged for a closer look

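Levels were screened for samples standing apart, by the gap of the highest or lowest of 9 cattle to its nearest neighbour over the range of the stage. Of 57 sets of 9 values (19 named genes at 3 stages), 9 passed Dixon's critical value at the 95% level, where chance passes about 1 in 20. In 6 of the 9 sets cattle 1 was the lowest: LUM early (0.619) and late (0.547), PDGFRA early (0.706, not well above background), FBN1 late (0.502), COL1A2 late (0.643) and COL3A1 late (0.529). LUM of cattle 1 was 0.41 early, where the next animal had 2.12, and 1.34 late, where the next had 2.55. COL1A2 of cattle 1 was 4.25 late against 6.26, and COL3A1 3.76 against 5.71. Cattle 4 was the highest at the middle stage for COL7A1 (0.573, level 1.42 against 0.25) and for PDGFRB (0.603, not well above background), and cattle 9 the lowest early for POSTN (0.546, level 1.27 against 2.55).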

How the results depend on the processing

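Of 180 recomputed counts and medians 145 stayed close to the value reported, and 1010 of 1125 changes of single named genes kept their side of the threshold (53 of them uncalled values that changed sign), while 78 lost their call, 32 gained one and 5 turned direction. The causes were not tested, except that fewer genes were tested with dim probes left out (32 of 44) and with cyclic loess of bright probes (23 of 44).

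In the first period (25 higher, 1 lower), quantile normalization gave 13 higher, cyclic loess 10 higher and 2 lower, dim probes left out 15 higher, normexp 22 higher and 3 lower, and the paired t-test of the methods (adjusted likewise) 2 lower. With slide as a fixed block both counts were 0, where 0.0067% of all probes were called higher and 0% lower. Of all probes tested, 24.5% were higher with quantile normalization, 32.9% with cyclic loess, 31.4% with dim probes left out and 45.4% with normexp. Lower were 31.9% with cyclic loess, 22.2% with normexp and 18.2% with the paired t-test. The median of the 44 genes was 0.24 with normexp. In the second period (4 higher, 28 lower), 17 were lower with quantile normalization, 12 with cyclic loess, 18 with dim probes left out and 15 with slide as a random block, which left 2 higher. Of all probes tested, 25.7%, 35.0%, 28.3% and 33.9% were lower at these settings in the order named. The median of the matrix genes tested was -0.39 with cyclic loess and -0.23 with normexp. In the total period (5 higher, 4 lower), 2 were higher with 75th percentile scaling, quantile normalization, normexp and the deposited log2 values. With cyclic loess 1 was higher and with slide as a random block 0. Of all probes tested, 6.65%, 7.13%, 5.34%, 6.72%, 13.8% and 0.56% were higher at these settings in the order named. Normexp and slide as a random block each gave 1 lower, where 2.61% and 1.11% of all probes were. The scaling moved the median of all probes in the first period from 0.32 to 0.09 (quantile) and 0.12 (normexp), and in the second from -0.27 to -0.46 (75th percentile).

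Values that turned direction were POSTN (-0.0646, first period), COL1A2 (0.0484) and COL4A1 (0.0328, both second period) with normexp, and COL8A1 (-0.46) and PDGFRB (-0.68) in the first period with slide as a fixed block.

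Leaving out each animal in turn gave 1 to 2 lower in the first period (2 without cattle 2). For the total period it gave 2 to 4 higher (2 without cattle 1 or 7, 3 without cattle 2, 5 or 8) and 2 to 5 lower (2 without cattle 3, 6 or 8). Uncalled changes that passed without an animal were also COL4A1 (first period, cattle 1 or 3), COL4A6 (first, 4 or 6), PDGFRA (first, 9; second, 3 or 9) and POSTN (total, 9), and PDGFRB lost its second-period call without cattle 4. Without the replicate block, which pairs samples of an animal, the counts were 23 higher and 1 lower, 4 and 25, and 4 and 3. Of all probes 44.1% and 20.6%, 26.2% and 43.6%, and 10.3% and 8.02% were. Leaving out this block ended the second-period calls of COL1A2 and COL3A1 and the total-period call of LUM. A mean over all probes of a gene gave nothing further, since each gene had 1 probe. Genes near background (12 of 44) carry no size at any setting.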
